A study of Sus scrofa with 9 samples.

Results

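FOLR1 and the other genes of folate one-carbon metabolism were followed in testis biopsies of a boar carrying a balanced reciprocal translocation between chromosomes 1 and 14. The genes considered were the folate receptors FOLR1 and FOLR2 and the enzymes TYMS, MTHFD1, SHMT1, SHMT2 and MTR. A probe belonged to the set when the array annotation gave it one of these symbols or described it as a folate receptor or folate binding protein. This gave 12 of the 60889 non-control probes, for 5 of the 7 genes, and TYMS and SHMT1 had no probe under these terms. FOLR1 had been picked out because its signal differed between the t(1;14) boar and the control boars, so its values in that contrast describe the choice: no p is printed for them and nothing is read from the counts of probes past a threshold there.

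The t(1;14) group comprised 3 arrays of 1 Landrace × Duroc crossbred boar with oligo-astheno-teratospermia (few, poorly motile and malformed spermatozoa) and the balanced karyotype trcp(1;14). The oligospermic group comprised 3 arrays of 1 boar with few spermatozoa and a normal karyotype (2n=38,XY). The control group comprised 3 arrays of testis from fertile boars with normal semen and the same normal karyotype, described as 3 boars in the methods and as a pool elsewhere, with the boar or pool behind each array not given. Each array held RNA of a testicular biopsy labelled with cyanine 3 and hybridized alone to a custom Agilent array, and the labels name no treatment and no age. Whatever else distinguished the boars goes with the group and cannot be told apart from it. The arrays are separate biopsies or extractions that the methods also call technical replicates, so p-values measure only the spread between arrays, which may be technical, and no test reaches beyond these animals. Each of 3 slides carried 1 array of each group. Between 37087 and 40632 probes per array were well above background. The levels below are log2 of the processed spot intensity after quantile normalization over the 9 arrays, and the median SD between arrays of a group was 0.24 in control, 0.18 in oligospermic and 0.13 in t(1;14). The tissue carried the transcripts of a testis: the haploid germ cell gene PRM1 lay between 16.04 and 16.32 at saturation, and the Leydig cell hormone INSL3 between 15.36 and 16.16 on the 9 arrays. The study's histology of the t(1;14) testis reported moderate atrophy of the seminiferous tubules and severe hyperplasia of the interstitial cells. Its part in the values below was not tested. In such bulk tissue, more or fewer cells of a type and more or less RNA per cell cannot be told apart.

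Folates carry single carbon units. Receptors of the FOLR family bind folate at the cell surface and take it in by endocytosis, and reduced folate is also moved by carriers such as SLC19A1. Inside the cell, SHMT1 and SHMT2 load a carbon unit from serine onto tetrahydrofolate, MTHFD1 interconverts the loaded forms, TYMS spends them on thymidylate for DNA synthesis, and MTR spends them on turning homocysteine into methionine. In the testis, dividing germ cells need thymidylate and purines, and methylation needs the methionine made here.

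The probes of the folate receptors are shown because their annotation sets which gene each value is read for. RefSeq (Sscrofa11.1) holds a pair of pig genes with the symbol FOLR1, gene IDs 396784 and 397579, which are neighbours on chromosome 9, and FOLR2 (gene ID 396853) lies close by on the same chromosome. Probes A_72_P088571 and A_72_P724477 were annotated to gene 396784 alone, A_72_P223507 to gene 397579 alone, and A_72_P710858 to both. No probe was aligned to a transcript, so whether A_72_P223507 also binds RNA of gene 396784 was not tested. The FOLR1 probe for both genes and the FOLR2 probe share a stretch of 26 bases, printed in capitals, in which 23 bases are identical and 3 differ. The remaining bases of each probe and the probe for gene 397579 are in lower case, 5′ to 3′ as deposited:
FOLR1 A_72_P710858: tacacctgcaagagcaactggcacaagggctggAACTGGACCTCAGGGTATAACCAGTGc
FOLR2 A_72_P232533: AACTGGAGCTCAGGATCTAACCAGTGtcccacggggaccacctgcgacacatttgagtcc
FOLR1 A_72_P223507: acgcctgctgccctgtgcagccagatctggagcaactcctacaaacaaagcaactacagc

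FOLR1 encodes folate receptor alpha, a membrane-anchored receptor with high affinity for folate. On all 4 probes its signal stood in the same order, control below oligospermic below t(1;14), and no array of one group reached the range of another. The brightest probe, A_72_P088571, read 10.35, 10.22 and 9.31 on the control arrays 1 to 3, 11.27, 10.83 and 10.66 on the oligospermic arrays, and 13.46, 13.81 and 13.58 on the t(1;14) arrays. Control 3 was the lowest array, and the t(1;14) arrays lay close together. The group means were 9.96 ± 0.57 in control, 10.92 ± 0.32 in oligospermic and 13.62 ± 0.18 in t(1;14) (SD, n = 3 arrays each). The t(1;14) mean was 3.66 above control on the log2 scale, a 12.6-fold difference, and 2.69 above oligospermic, a 6.47-fold difference.

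**Figure D1:**
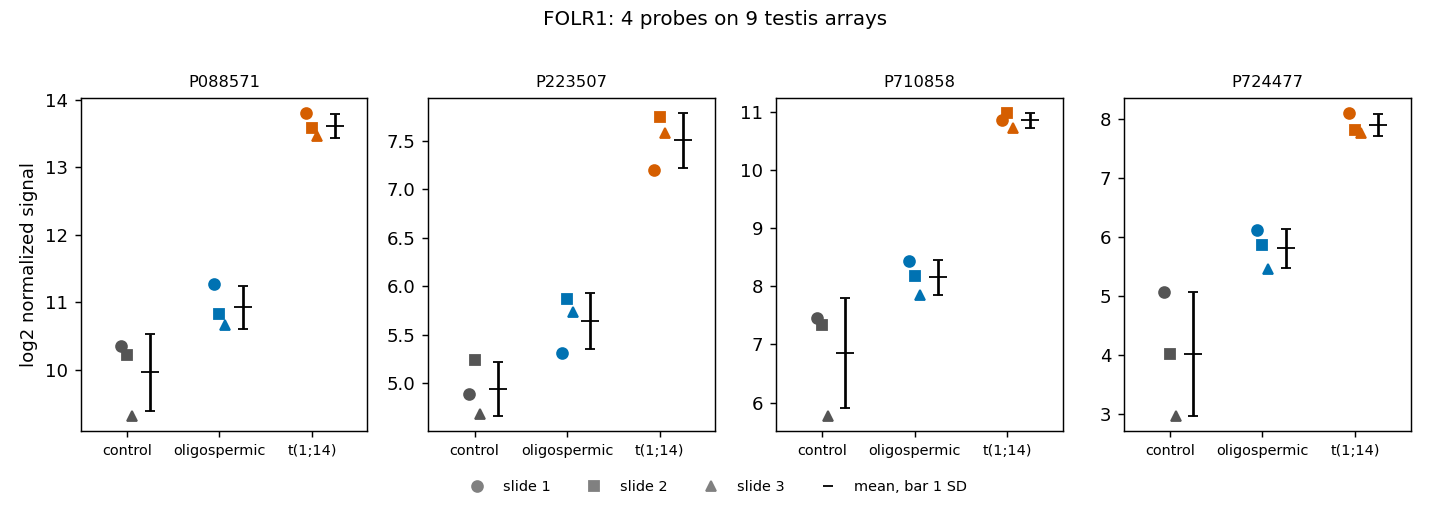
Log2 normalized signal of the 4 FOLR1 probes (1 panel each, with its own vertical axis) on the 9 arrays, by group on the horizontal axis. Symbols give the slide, and the bar beside each group its mean and 1 SD over 3 arrays. In each panel the t(1;14) arrays lie above the oligospermic arrays and these above the control arrays, and control array 3, on slide 3, is the lowest array in each panel.

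The probe annotated to the other FOLR1 gene, A_72_P223507, was dim and kept the order. It read 4.89, 5.24 and 4.68 in control, 5.31, 5.87 and 5.73 in oligospermic, and 7.58, 7.19 and 7.74 in t(1;14). The t(1;14) mean lay 2.57 above control (5.93-fold) and 1.87 above oligospermic (3.64-fold). The probe shared by both genes, A_72_P710858, read 7.45, 7.34 and 5.76 in control, 8.44, 8.18 and 7.84 in oligospermic, and 10.72, 10.86 and 10.98 in t(1;14). Its t(1;14) mean lay 4.00 above control (16.0-fold) and 2.70 above oligospermic (6.5-fold). The second probe of gene 396784, A_72_P724477, read 5.08, 4.02 and 2.96 in control, where it was well above background on 2 of the 3 arrays. It read 6.11, 5.86 and 5.46 in oligospermic and 7.76, 8.11 and 7.82 in t(1;14), a difference of 3.88 to control (14.7-fold) and 2.09 to oligospermic (4.25-fold).

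The sizes of these differences depended on how the spot intensity was processed, most on the dim probes. The alternative was a normexp correction of the raw spot means with an offset of 50, and the parts of this change were not separated. With it t(1;14) exceeded control by 3.51 on A_72_P088571 and 3.15 on A_72_P710858, but by 1.35 on A_72_P223507 and 1.93 on A_72_P724477. In the same order of probes, t(1;14) then exceeded oligospermic by 2.64, 2.27, 1.1 and 1.36. Of the 12 probes, 10 passed the filter for a test in each comparison. In t(1;14) against control, 4 of them, the FOLR1 probes, met the thresholds of the study's methods for a differential probe (adjusted p of at most 0.01 and a log2 fold change of at least 2 in size), where 1.31% of all 40643 tested probes did so upwards. At the adjusted p alone, 5 were higher, where 15.6% of tested probes were higher and 15.6% lower. The groups did not overlap on 7 of the 10 probes, against 62.0% of all tested probes. With FOLR1 chosen on this contrast these counts describe the choice, and under the normexp correction the differential count was 2.

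The contrast on which FOLR1 was picked held no oligospermic arrays, though it held the control arrays. All 4 FOLR1 probes read higher in oligospermic than in control: by 0.96 ± 0.31 (SE) on A_72_P088571, 0.70 ± 0.21 on A_72_P223507, 1.30 ± 0.46 on A_72_P710858 and 1.79 ± 0.51 on A_72_P724477. The 95% intervals of these differences ran from 0.21 to 1.71, from 0.20 to 1.21, from 0.20 to 2.40 and from 0.56 to 3.02. For A_72_P724477 the difference and interval rest partly on control 3, which was not well above background. None passed the test over all probes: the adjusted p from limma was 0.38, 0.34, 0.42 and 0.31 in that order, with unadjusted p of 0.0194, 0.0139, 0.0274 and 0.0112. No probe of the 5 measured genes was called at an adjusted p of 0.01 in this comparison, where 0.0755% of the 39713 tested probes were called and 0.0730% were differential, and 5 of the 10 tested had an unadjusted p under 0.05, against 9.84% of all tested probes. The groups did not overlap on 6 of the 10 probes, against 15.7% of all tested probes. In each of these counts 4 are FOLR1 probes, which share a gene or its neighbour and the control arrays on which FOLR1 was chosen, so nothing is read from the counts. Control 3 carried part of the difference: without it the 4 probes differed by 0.64 on A_72_P088571, 0.58 on A_72_P223507, 0.76 on A_72_P710858 and 1.26 on A_72_P724477, with adjusted p from limma between 0.33 and 0.50. With normexp the differences were 0.88 on A_72_P088571, 0.25 on A_72_P223507, 0.88 on A_72_P710858 and 0.57 on A_72_P724477.

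Arrays of the same slide were compared directly, since each slide held every group. On A_72_P088571 the t(1;14) array exceeded the control array of its slide by 3.46, 3.36 and 4.15 on slides 1 to 3, and the oligospermic array exceeded it by 0.93, 0.61 and 1.35. On the other 3 FOLR1 probes the t(1;14) excess over control ran from 2.30 to 4.96, and the oligospermic excess from 0.43 to 2.49. The 2.49 is A_72_P724477 on slide 3, where control 3 was not well above background, so its exact size is uncertain. The largest differences to control stood on slide 3, which held control 3, for all 4 probes. Between t(1;14) and oligospermic the slides gave closer values, from 2.53 to 2.80 on A_72_P088571 and from 1.84 to 1.88 on A_72_P223507.

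**Figure D2:**
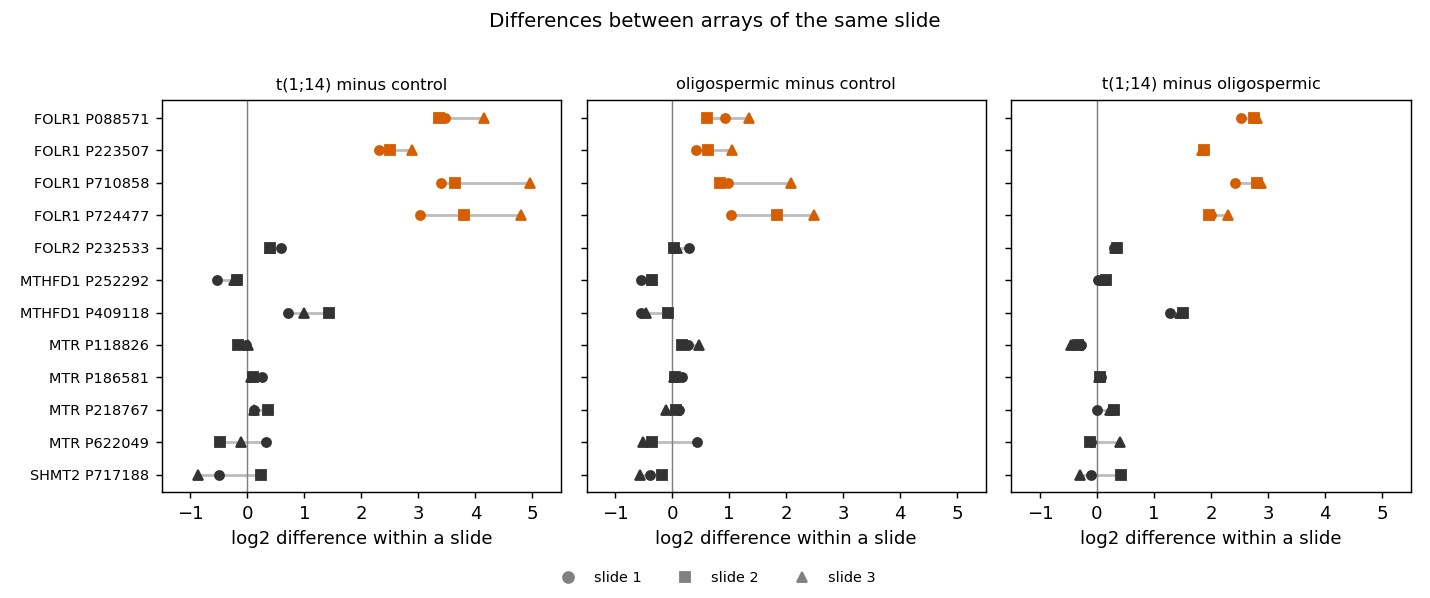
Log2 difference between arrays of the same slide (horizontal axis) for each of the 12 probes (rows), in 3 panels for the 3 pairs of groups, with a symbol for each slide and a grey line over their range. The FOLR1 probes, in orange, lie right of 0 on every slide in every panel, by at least 2.30 in t(1;14) minus control, while the FOLR2 differences there run from 0.39 to 0.59.

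FOLR2 encodes folate receptor beta, the form known from macrophages and placenta. Its probe read 5.83, 6.13 and 6.02 in control, 6.13, 6.17 and 6.10 in oligospermic and 6.41, 6.43 and 6.52 in t(1;14). The t(1;14) arrays lay above the others without overlap, by 0.46 over control (1.37-fold) and 0.32 over oligospermic (1.25-fold), where the FOLR1 probes lay 2.57 to 4.00 over control. Of all tested probes 62.0% did not overlap against control and 70.9% against oligospermic. FOLR2 was not called at an adjusted p of 0.01 from limma in either of these comparisons. Oligospermic and control overlapped and differed by 0.14 with a 95% interval from -0.17 to 0.44 (adjusted p from limma 0.82). Under the normexp correction the t(1;14) excess was 0.25 over control and 0.17 over oligospermic. Of 5 tested macrophage markers, the lipopolysaccharide co-receptor CD14 rose in t(1;14) against control, by 1.30 (adjusted p from limma 0.00497), and the other 4 were not called, where 15.6% of all tested probes were called higher. Against oligospermic 4 of the 5 rose, or 3 with normexp, which lost C1QA, where 27.1% of all tested probes were called higher. The mean level of the 5 genes lay between 6.11 and 7.03 in control, 5.95 and 6.20 in oligospermic and 6.86 and 7.14 in t(1;14), C1QA was well above background on 8 of the 9 arrays and the other 4 genes on all 9, and their part in the FOLR2 values was not tested.

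MTHFD1 encodes the cytosolic enzyme that interconverts formyl, methenyl and methylene tetrahydrofolate. Its 2 probes went different ways. The bright probe, A_72_P252292, read 12.44, 12.02 and 12.08 in control, 11.89, 11.67 and 11.72 in oligospermic and 11.84, 11.91 and 11.83 in t(1;14). The control arrays lay above both other groups, by 0.32 over t(1;14) and 0.42 over oligospermic. The dim probe, A_72_P409118, read 5.81, 5.01 and 5.22 in control, 5.25, 4.93 and 4.76 in oligospermic and 6.21, 6.52 and 6.44 in t(1;14). Here the t(1;14) arrays lay highest, 1.05 above control (2.07-fold) and 1.41 above oligospermic (2.66-fold), and with the normexp correction 0.52 and 0.67. In oligospermic against control the bright probe differed by -0.42 with a 95% interval from -0.80 to -0.04 and an adjusted p from limma of 0.46, and the dim probe by -0.36 with an interval from -0.95 to 0.22 and an adjusted p of 0.72. The array annotation gave the probes different target transcripts, an Ensembl transcript for the bright probe and a cDNA for the dim one. The target of the bright probe matched no RefSeq gene in the table used and its bases hold no reading frame free of stops, and no single direction is given for MTHFD1 in t(1;14).

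MTR encodes methionine synthase, which passes the methyl group of methyltetrahydrofolate to homocysteine. It lies on chromosome 14, one of the chromosomes of the translocation. Of its 4 probes, 3 were well above background on every array. A_72_P118826 read 5.18, 5.09 and 5.11 in control, 5.45, 5.26 and 5.58 in oligospermic and 5.12, 5.16 and 4.92 in t(1;14). The oligospermic arrays lay highest, by 0.30 over control with a 95% interval from -0.01 to 0.62 (adjusted p from limma 0.52). Its t(1;14) mean differed from control by -0.06, or by 0.07 with scaling by the 75th percentile. On A_72_P186581 and A_72_P218767 the groups overlapped in every comparison. Those probes differed between t(1;14) and control by 0.14 and 0.20, and between oligospermic and control by 0.09 and 0.03, with 95% intervals of the latter from -0.28 to 0.45 and from -0.34 to 0.39. The difference of 0.03 turned to -0.01 with normexp or scaling by the 75th percentile. The fourth probe, A_72_P622049, was well above background on 1 array of each group and was not tested.

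SHMT2 encodes the mitochondrial serine hydroxymethyltransferase. Its probe, A_72_P717188, was not well above background on any of the 9 arrays, with readings between 1.61 and 2.68, so no level and no fold can be given.

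**Figure D3:**
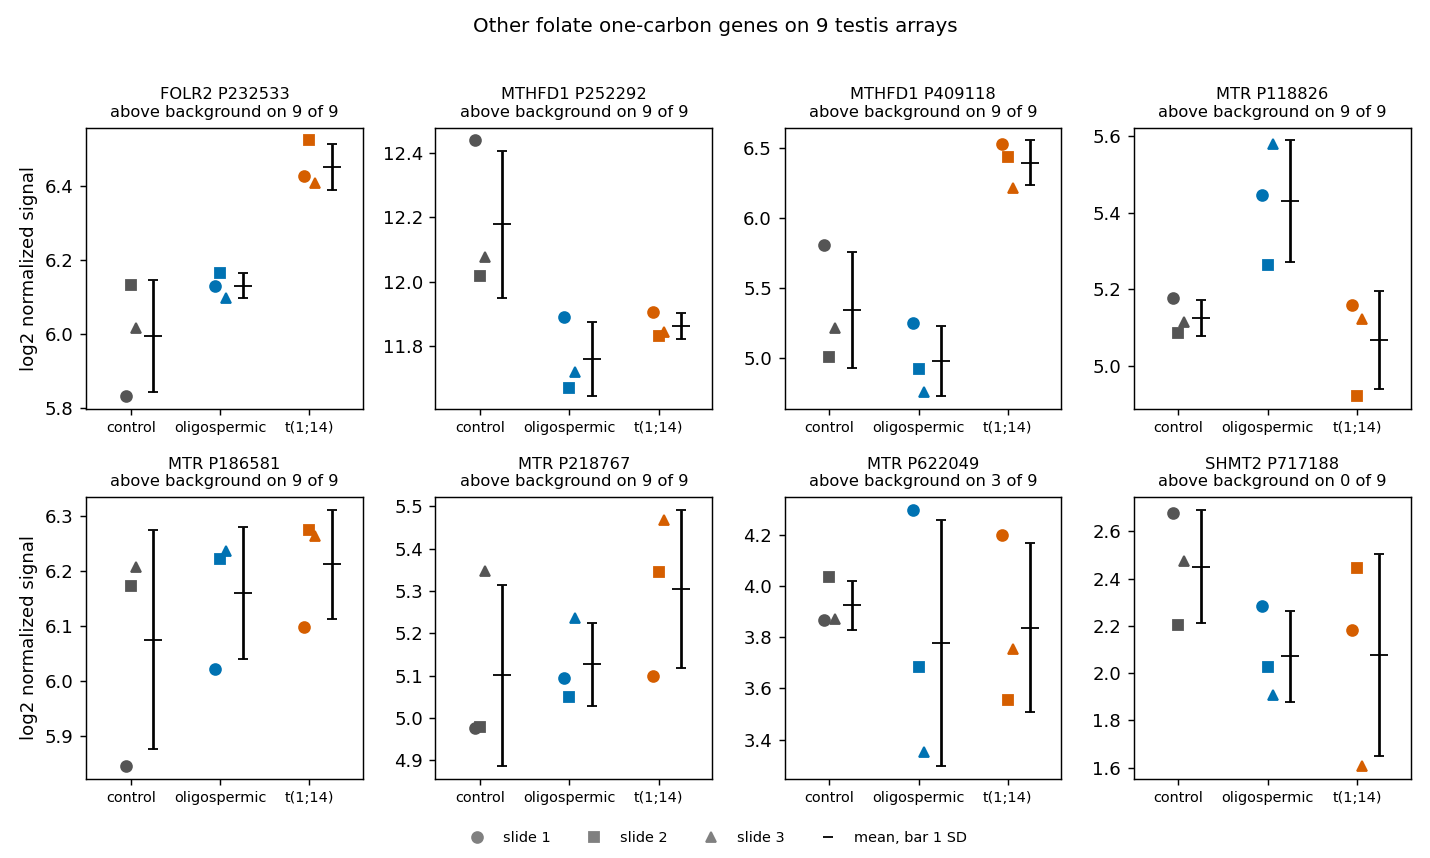
Log2 normalized signal of the 8 probes of FOLR2, MTHFD1, MTR and SHMT2 on the 9 arrays, by group on the horizontal axis, each panel with its own vertical axis and the number of arrays well above background in its title. Symbols give the slide and bars the mean and 1 SD over 3 arrays, and a reader should see the t(1;14) arrays highest for FOLR2 and the dim MTHFD1 probe, the control arrays highest for the bright MTHFD1 probe, and overlapping groups for MTR probes A_72_P186581 and A_72_P218767.

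Between t(1;14) and oligospermic, 3 of the 10 tested probes were differential, all FOLR1 and all higher in t(1;14), where 1.93% of the 40567 tested probes were differential upwards. At the adjusted p alone 5 were higher and 0 lower, where 27.1% of tested probes were higher and 22.0% lower. The groups did not overlap on 7 of the 10 probes, against 70.9% of all tested probes. The t(1;14) arrays here are those of the contrast that singled out FOLR1, so no test was drawn from these counts.

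The rest of the pathway was read from 49 further genes in 6 lists, of which 29 were on the array and 27 were tested, each by its brightest tested probe. In t(1;14) against control 5 genes rose and 4 fell at an adjusted p of 0.01 from limma, and none reached a log2 fold change of 2 in size. That is 18.5% and 14.8% of the 27, near the 15.6% and 15.6% of all tested probes. The median log2 fold change of the 27 genes was 0.25, against 0.14 over all tested probes. In oligospermic against control none of the 27 was called by limma, 4 of the 27 had an unadjusted p under 0.05, where 9.84% of all tested probes had, and the median was 0.09 against 0.00. In t(1;14) against oligospermic 8 rose and 7 fell, 29.6% and 25.9%, with a median of -0.04 against 0.14. The counts depended on single arrays: against control, 5 genes in place of 9 were called without control 3, 4 without t(1;14) array 1 and 3 without t(1;14) array 3. Against oligospermic, 9 in place of 15 were called without oligospermic array 2, 8 without oligospermic array 3, and 7 without t(1;14) array 1 or 3. With slide as a block, 7 of the 9 calls against control remained and ATIC and AHCY were lost, and all 15 against oligospermic remained.

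Among the genes of folate uptake and retention, GGH, the hydrolase that shortens stored polyglutamated folates, fell in the t(1;14) boar. It read 13.41, 13.44 and 13.32 in control, 13.54, 13.35 and 13.35 in oligospermic and 12.03, 11.97 and 12.09 in t(1;14), a change of -1.36 ± 0.11 (SE) against control (2.57-fold lower, adjusted p from limma 0.00023) and -1.38 against oligospermic (adjusted p 6.8e-05). Oligospermic and control overlapped on it. SLC19A1, the reduced folate carrier, rose: it read 9.78, 9.36 and 9.29 in control, 9.72, 9.53 and 9.34 in oligospermic and 10.19, 10.56 and 10.31 in t(1;14). Its change was 0.88 ± 0.18 (SE) against control (1.84-fold, adjusted p from limma 0.00785) and 0.82 against oligospermic (adjusted p 0.00296), and with scaling by the 75th percentile the call against control was lost. The proton-coupled folate transporter SLC46A1 was higher by 0.80 against control without passing the test (adjusted p from limma 0.0215) and rose by 0.96 against oligospermic (adjusted p 0.0021). The mitochondrial carrier SLC25A32 fell against oligospermic by 0.44 (adjusted p from limma 0.00554) and differed from control by 0.02.

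Of the folate interconverting enzymes, 4 of 11 were tested and none was called in t(1;14) against control. MTRR, which keeps MTR active, was higher by 0.64 against control (adjusted p from limma 0.0264) and rose by 0.68 against oligospermic (adjusted p 0.00832), a call lost with normexp. ALDH1L2, a mitochondrial enzyme that oxidizes formyltetrahydrofolate, differed from control by 0.50 and was not called (adjusted p from limma 0.119).

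Of the 3 tested genes of purine synthesis, the folate-using enzyme ATIC rose by 0.54 ± 0.11 (SE) in t(1;14) against control (adjusted p from limma 0.00734), and the call was lost with scaling by the 75th percentile. PPAT and ADSL were not called, at 0.46 and 0.14.

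The glycine cleavage enzymes went apart. AMT, the folate-binding aminomethyltransferase of that system, fell. It read 7.80, 7.82 and 7.95 in control, 7.24, 6.90 and 7.07 in oligospermic and 6.33, 5.99 and 6.27 in t(1;14), with a change of -1.66 ± 0.13 (SE) against control (3.15-fold lower, adjusted p from limma 0.000264). In oligospermic it was lower than in control by 0.79 without overlap and without passing the test (adjusted p from limma 0.124). DLD, the dehydrogenase subunit that this system shares with other mitochondrial complexes, rose by 1.30 ± 0.13 (SE) against control (2.46-fold, adjusted p from limma 0.000537). PHGDH and PSAT1, which make serine, differed from control by -0.20 and 0.32 and were not called.

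In the methionine cycle, MAT2B, the regulatory subunit of the widespread S-adenosylmethionine synthetase, rose by 0.99 ± 0.14 (SE) in t(1;14) against control (1.99-fold, adjusted p from limma 0.00193) and by 1.17 against oligospermic (adjusted p 0.000142). AHCY, which clears S-adenosylhomocysteine, rose by 0.66 (adjusted p from limma 0.00565), a call lost with scaling by the 75th percentile. MAT1A, the synthetase known from liver, fell by 0.85 (adjusted p from limma 0.00305). The other 5 tested genes of the list were not called against control.

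Of the genes supplying cobalamin, the cofactor of MTR, LMBRD1, which exports cobalamin from lysosomes, fell by 0.98 in t(1;14) against control (adjusted p from limma 0.00192) and by 1.38 against oligospermic (adjusted p 6.7e-05). It read 10.25, 10.60 and 10.49 in control, 10.89, 10.90 and 10.76 in oligospermic and 9.50, 9.35 and 9.54 in t(1;14), so the oligospermic arrays lay highest without overlap. The blood carrier TCN2 differed from control by 0.11 and was not called.

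**Figure D4:**
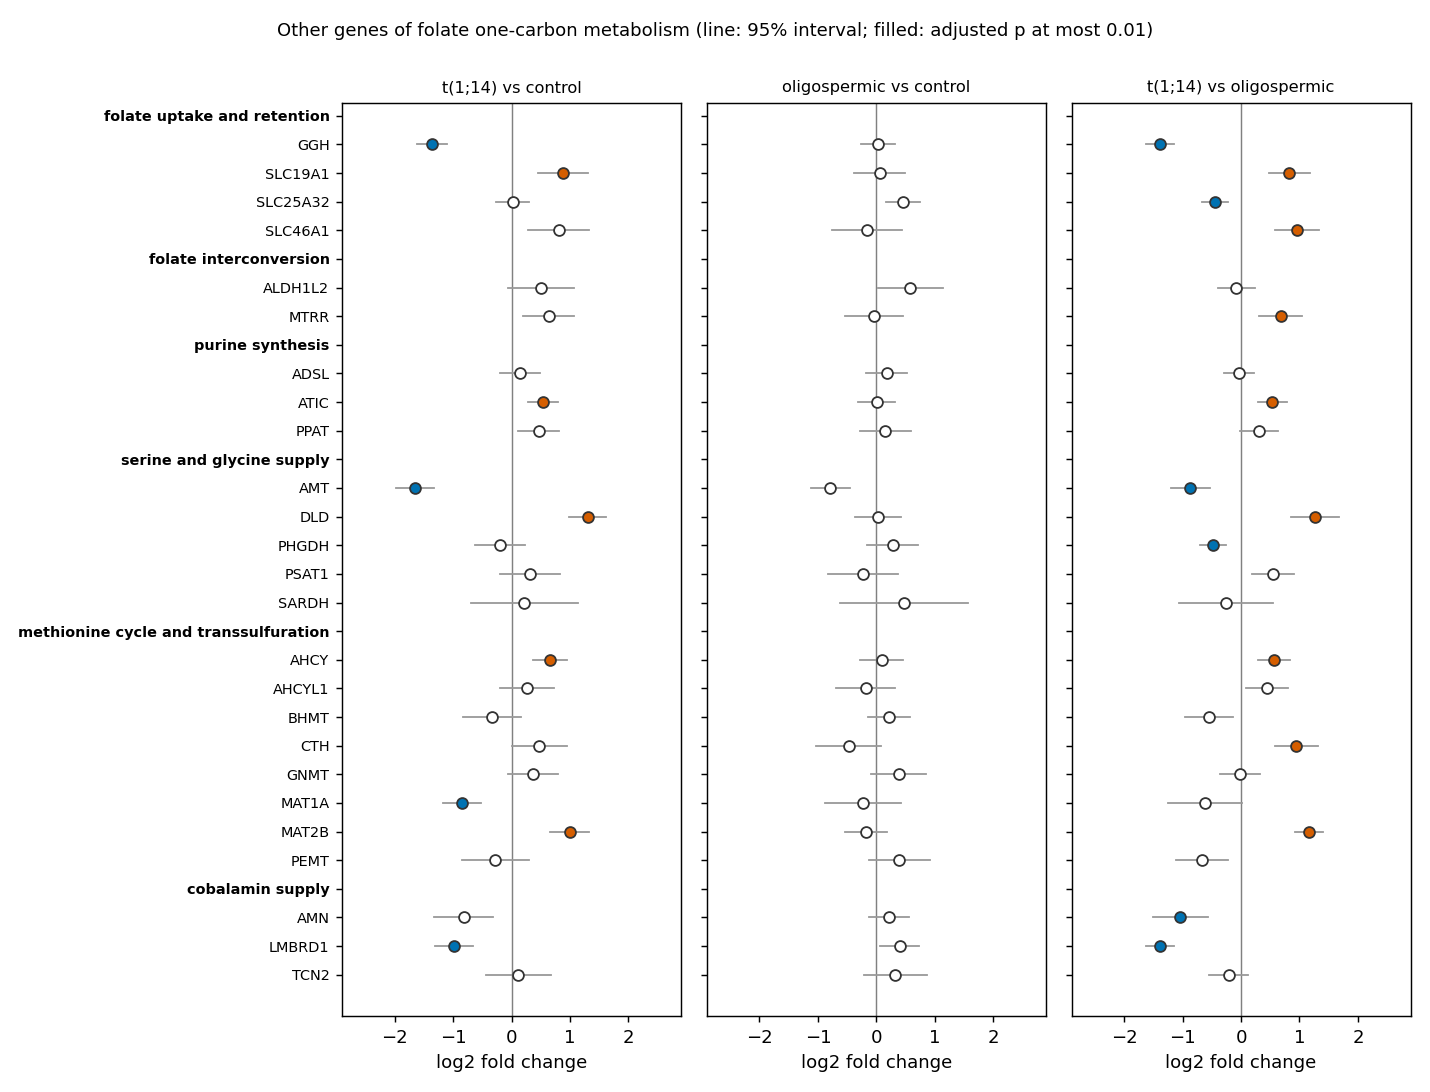
Log2 fold change (horizontal axis) of 25 of the 27 tested genes of the 6 other one-carbon lists (rows) in 3 panels for the 3 comparisons, with 95% intervals as lines. Filled symbols are called at an adjusted p of at most 0.01 from limma, orange for higher and blue for lower: 5 and 4 in t(1;14) against control, none in oligospermic against control, and 8 and 6 in t(1;14) against oligospermic.

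Markers of several cell types moved beside FOLR1. Of 7 tested Leydig cell markers (steroid synthesis, its hormonal control and the hormone INSL3), 5 rose in t(1;14) against control and none fell. Of these 5, 4 rose by at least 2 on the log2 scale. Over all tested probes 15.6% were called higher and 1.31% were differential upwards. With normexp 4 of the Leydig markers were called and HSD3B1 was lost. STAR, which brings cholesterol to the inner mitochondrial membrane, rose by 3.72 (adjusted p from limma 0.000162), the luteinizing hormone receptor LHCGR by 2.73 (adjusted p 0.000125) and CYP11A1, the first enzyme of steroid synthesis, by 2.57 (adjusted p 0.000124), while INSL3, saturated on 2 of the 3 t(1;14) arrays and 1 oligospermic array, gave no readable difference. The mean level of the 7 Leydig genes lay between 10.81 and 11.04 in control, 10.87 and 11.21 in oligospermic and 12.60 and 12.75 in t(1;14), and all 7 were well above background on every array. In oligospermic against control none of the 7 was called, with LHCGR at 0.94 (adjusted p from limma 0.188). Their part in the FOLR1 values was not tested.

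The other marker lists gave the following counts in t(1;14) against control, to be read beside the 15.6% of all tested probes called higher and 15.6% called lower. Of 5 spermatid markers 3 fell and none rose, with a list mean between 15.03 and 15.13 in control, 14.99 and 15.12 in oligospermic and 13.71 and 13.85 in t(1;14). These levels have a ceiling: PRM1 was saturated on all 9 arrays, PRM2 on all 3 control and all 3 oligospermic arrays, and TNP2 on 1 control and 3 oligospermic arrays, so PRM1 could not be read in either direction and the list mean is limited by the ceiling. Of 4 duct epithelium markers the epididymal gene ELSPBP1 fell by 2.57, the other 3 were not called and the list mean lay lower in t(1;14), at 6.51 to 6.76, than in control, at 7.34 to 7.54, or oligospermic, at 7.42 to 7.56. Of 7 Sertoli markers 1, WT1, fell, with a list mean of 8.60 to 8.89 in control, 8.49 to 8.66 in oligospermic and 8.49 to 8.64 in t(1;14). Of 5 peritubular and vascular markers 2 rose and 1 fell, with a list mean of 8.61 to 9.36, 8.98 to 9.08 and 9.39 to 9.49 in the same order of groups. Of 3 spermatogonium markers 1 rose (10.94 to 11.44, 10.70 to 11.11 and 11.88 to 11.96), and of 2 spermatocyte markers 1 rose and 1 fell (10.58 to 11.02, 9.62 to 9.95 and 10.75 to 10.95). Both tested S phase markers rose, PCNA by 0.98 and MCM3 by 0.82 (7.42 to 7.56, 7.42 to 7.79 and 8.38 to 8.48). Against oligospermic, where 27.1% of all tested probes were called higher and 22.0% lower, t(1;14) had 4 Leydig markers higher and 0 lower, 0 spermatid markers higher and 3 lower, and 3 spermatogonium markers higher and 0 lower. Both spermatocyte markers and 1 S phase marker were also higher, and 2 duct epithelium markers and 1 Sertoli marker lower. Of the peritubular and vascular markers 3 were higher and 1 lower. With scaling by the 75th percentile the spermatogonium count was 1 against oligospermic and 0 against control, and with normexp it was 3 against control. No marker of any list, Leydig included, was called by limma in oligospermic against control, where 8 of the 40 tested markers had an unadjusted p under 0.05, against 9.84% of all tested probes. The meiotic recombination gene SPO11, lower there by 2.14 (4.41-fold, adjusted p from limma 0.0363), stood closest to the threshold, and with normexp 1 of the 2 spermatocyte markers was called lower. The part of these lists in the FOLR1 values was not tested.

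The 10 genes whose signal followed FOLR1 most closely were found over 6191 named genes, each by its brightest probe, with the Pearson correlation over the 9 arrays as the measure of likeness to A_72_P088571. They were RLN2, EPHX1, MAL2, NECAP2, CYB5A, BLVRB, ATL3, SLTM, GSTO1 and ZMAT1, with r from 0.995 down to 0.983. The correlation is a description over arrays that fall into 3 groups, with t(1;14) apart from the rest, and 673 genes (10.9%) reached an r of 0.9. RLN2, the hormone relaxin, stood first and read 5.84, 6.17 and 4.88 in control, 7.03, 6.89 and 6.67 in oligospermic, and 10.17 on average in t(1;14). Like FOLR1 it was lowest on control 3 and without overlap between the groups. Within groups, after the group means were taken off, the correlation with FOLR1 was, among these 10 genes, highest for CYB5A, the cytochrome that assists CYP17A1 in androgen synthesis, at 0.96, and BLVRB, biliverdin reductase B, at 0.96, with 0.88 for EPHX1 and 0.86 for RLN2. Control 3 was the lowest control array for FOLR1, CYB5A, BLVRB, EPHX1 and RLN2 alike, so that array weighs on these correlations. EPHX1 and GSTO1, enzymes that handle reactive compounds, lay 2.14 and 2.30 higher in t(1;14) than in control, and NECAP2 and SLTM 0.74 and 0.78.

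**Figure D5:**
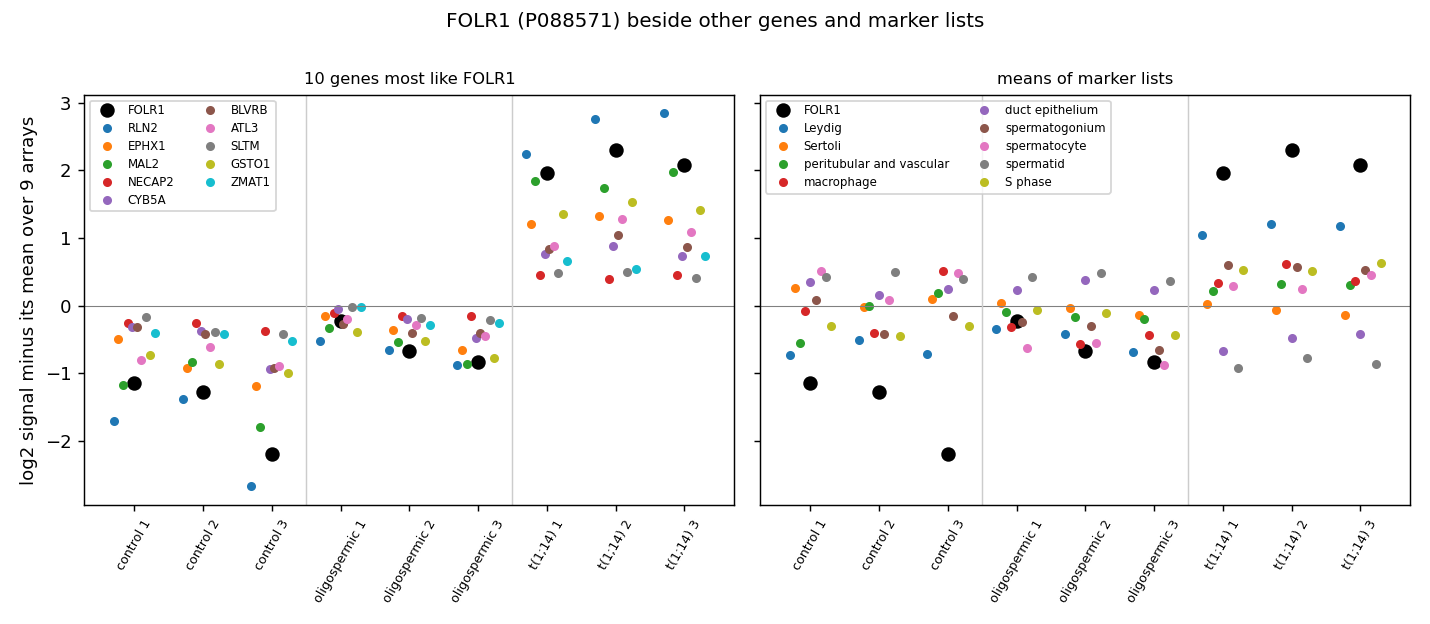
Log2 signal of FOLR1 probe A_72_P088571 (large black points) on each of the 9 arrays (horizontal axis), less its mean over the arrays, beside the 10 genes most like it (left) and the means of 9 marker lists (right) on the same scale, with points of an array spread sideways for legibility. On the left, FOLR1 and RLN2 cover the widest range. On the right, the Leydig mean is the list that lies highest on the t(1;14) arrays, 12.60 to 12.75 before the mean is taken off, and the spermatid mean the lowest.

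Of the FOLR1 probes, 3 also moved with each other within groups. The probes of gene 396784 and the shared probe correlated at 0.89 to 0.94, while A_72_P223507, the probe of gene 397579, correlated with them at 0.00, 0.30 and -0.03. FOLR2 correlated with A_72_P710858, with which it shares the printed stretch, at -0.08 within groups. These are descriptions over arrays that share 3 slides, with no test. Control 3, the lowest control array on each FOLR1 probe, weighs on the values of 0.89 to 0.94.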

How the data were processed

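The authors extracted testis RNA, labelled it with cyanine 3, hybridized it to a 60K custom porcine Agilent array and read the spots with Feature Extraction. The deposited intensity of a spot is background-subtracted and detrended without any scaling between arrays. A table of log2 values deposited by the authors lists 38759 probes, 9 of the 12 member probes among them, and for these differs from the values used here by at most 0.27. For each non-control probe the intensity was put on the log2 scale and all 9 arrays were quantile normalized together (limma 3.58.1, R 4.3.3). Probes entered a test when 2 or more of the 3 arrays in either group read well above background with no outlier flag. Each comparison was fitted by limma (lmFit, eBayes) on its own 6 arrays, two-sided, with Benjamini-Hochberg adjustment over every probe that entered, and the script was tested on simulated data. The number of arrays limits the precision.

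Symbols came from the files or, by accession, from RefSeq (Sscrofa11.1), for 15765 probes and 7269 genes. Gene coordinates were used only to order the genes along a chromosome. A listed gene was read from its brightest tested probe. The naming rule took all member probes, differential genes and the most changed gene of each one-carbon list, the 10 genes most like FOLR1, and markers beside a result. The single values of 2 list genes, 1 of them the most changed of its list, are not reported here, though both are in the counts. The other genes were named after their values were seen. The members and lists were chosen with earlier results of these data known.

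In oligospermic against control a shared replicate number meant a shared slide, and the deviations of same-numbered arrays correlated at 0.49, 0.14 and 0.10. Pairing by number cannot be told apart from the slide there, and the main fits had no block. Alternatives were quantile normalization within 6 arrays, scaling by the 75th percentile, normexp with an offset of 50, the deposited log2 values, other filters, slide or replicate number as a block, 1 model of 9 arrays, an intensity trend, other thresholds, the mean of a gene's probes, and leaving out each array.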

Additional observations from a re-analysis of the deposited data

How the results depend on the processing

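The log2 fold change of FOLR1 (A_72_P088571) ran from 3.33 to 3.85 over 16 alternatives in t(1;14) against control, from 2.48 to 2.87 in t(1;14) against oligospermic and from 0.64 to 1.16 in oligospermic against control, where the adjusted p from limma ran from 0.18 to 0.81 and was never called. In oligospermic against control the replicate block changed no call, and with it (here also the slide) the adjusted p of FOLR1 was 0.211. The member probes counted as differential in t(1;14) against control stayed at 4 without each array in turn and fell to 2 with normexp. In t(1;14) against oligospermic the count was 2 to 3 without each array in turn and 5 at a log2 fold threshold of 1. In oligospermic against control it was 0 under all 18 alternatives, and so was the count of the other one-carbon genes. That count ran from 3 to 9 without each array in turn in t(1;14) against control, where it was 5 with the mean of a gene's probes and 3 with the replicate block, and from 7 to 16 without each array in turn in t(1;14) against oligospermic, where it was 7 with the replicate block. In the comparisons with t(1;14) a shared number was not a shared slide. Same-numbered arrays correlated at -0.29, -0.20 and 0.14 against control and at -0.43, -0.34 and 0.12 against oligospermic. Arrays of a slide correlated at 0.35, 0.11 and 0.12 and at 0.50, 0.30 and 0.34, and slide as a block gave counts of 7 and 17. At an adjusted p of 0.05 the counts were 13 and 19. MTR (A_72_P186581) in oligospermic against control ran from -0.029 to 0.15 without each array in turn, and turned negative without control array 1. The cause of these changes was not tested. MTHFD1 (A_72_P252292) in t(1;14) against oligospermic was 0.10, and -0.10 with 75th percentile scaling. Probes near background, such as A_72_P724477, were limited by signal over background.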

Other observations

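Some probes outside the member rule carry descriptions of the same reactions, and were chosen from their descriptions after the member probes had been examined. For SHMT, the array holds 3 probes of an Ensembl transcript described as serine hydroxymethyltransferase with no gene symbol in the files. On the brightest, A_72_P066621, the control arrays read 8.10, 7.43 and 7.79, the oligospermic arrays 7.97, 7.72 and 7.47, and the t(1;14) arrays 8.93, 9.06 and 8.87. It rose by 1.18 in t(1;14) against control (2.27-fold, adjusted p from limma 0.00318) and by 1.24 against oligospermic (adjusted p 0.000527), and oligospermic and control overlapped with a difference of -0.05. A_72_P669630 rose by 0.73 against control (adjusted p from limma 0.00342). A_72_P566604 was well above background on 1 control array, 0 oligospermic arrays and 2 t(1;14) arrays, and no difference is given for it.

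A probe of an expressed sequence described as similar to MTHFD1, A_72_P382818, read 5.33, 5.07 and 5.21 in control, 4.02, 3.85 and 4.38 in oligospermic and 3.65, 3.11 and 3.55 in t(1;14), where it was well above background on 1 of 3 arrays. It passed the filter against t(1;14) through the control arrays alone, so that difference is left as these values, and it differed by -1.12 in oligospermic against control without being called (adjusted p 0.0921). The probe of folate hydrolase, A_72_P146521, an enzyme that trims glutamates off folates outside the cell, rose by 1.72 in t(1;14) against control (adjusted p from limma 0.00505) and in oligospermic against control the groups overlapped (adjusted p 1).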
